A study of Mus musculus with 4 samples.

Results

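The nuclear genes for the subunits of the mitochondrial respiratory chain and ATP synthase were examined in colonic epithelial cells with and without a Mettl14 deletion. Members were taken by symbol from the count table (Nduf subunits of complex I, Sdha to Sdhd of complex II, Uqcr genes and Cyc1 of complex III, Cycs for cytochrome c, Cox4 to Cox8 genes of complex IV and Atp5 genes of complex V). This gave 86 of 50600 genes, with 37 for complex I, 4 for complex II, 9 for complex III, 1 for cytochrome c, 18 for complex IV and 17 for complex V, after 6 pseudogenes were left out. RNA was sequenced from primary epithelial cells of the colon (strain C57BL/6) in 2 libraries of Mettl14 knockout (KO) genotype and 2 libraries of wild-type (WT) genotype. Mettl14 encodes a subunit of the enzyme that adds N6-methyladenosine (m6A) to mRNA. How the deletion was made, which cells carried it, the age of the mice, any treatment and the meaning of a code shared by all sample titles are not stated in the labels.

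The respiratory chain passes electrons from NADH through complex I, and from succinate through complex II, to coenzyme Q. From there complex III hands them to cytochrome c, and complex IV passes them to oxygen. Protons pumped on the way drive complex V, the ATP synthase, and colonocytes use the chain to oxidise butyrate from the gut lumen. Most subunits are encoded in the nucleus and imported, and a small set is made inside the mitochondrion, so both genomes supply complexes I, III, IV and V.

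Levels are counts scaled to the library total (CPM) and adjusted by TMM (trimmed mean of M-values) factors, and fold changes are KO over WT. Mettl14 itself stood at 3.99 and 3.94 CPM in KO libraries, against 11.7 and 8.67 CPM in WT libraries. Its log2 fold change was -1.36, with an adjusted p of 0.0504 by edgeR's quasi-likelihood test, just above the threshold of 0.05, and it was called in 7 of 15 alternative settings. Library totals ran from 22136440 to 24991060 counts. Xist and Y-linked transcripts marked KO replicate 1 and WT replicate 2 as female, and KO replicate 2 and WT replicate 1 as male. Of 7 epithelial markers, all were detected, and their summed level was 6147 and 5581 CPM in KO libraries, against 6467 and 8255 CPM in WT libraries. Markers of other cells were also present. All 8 macrophage markers were detected, and they summed to 129 and 126 CPM in KO libraries, against 51.7 and 59.4 CPM in WT libraries, with 3 of the 8 called higher. All 6 absorptive colonocyte markers were detected, and they summed to 1386 and 1491 CPM in KO libraries, against 2969 and 2398 CPM in WT libraries. Their directions were mixed. Log2 fold changes were negative for Aqp8 (-1.67, the 1 called), Car1 (-0.85), Slc51a (-0.77) and Krt20 (-0.45). They were positive for Slc26a3 (0.54) and Car4 (0.03). The WT libraries differed widely in Car1 (965 and 459 CPM) and Slc51a (279 and 63.3 CPM). Erythroid markers (5 of 5 detected) summed to 1353 and 6681 CPM in KO libraries, against 1976 and 2736 CPM in WT libraries. Fibroblast markers (4 of 4 detected) summed to 52.9 and 454 CPM in KO libraries, against 42.0 and 57.1 CPM in WT libraries. The part of these cells in the results below was not tested, and in bulk RNA fewer cells of a type and less RNA per cell cannot be told apart.

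Several transcription factors are known to bind upstream of these genes, among them NRF1, the ETS factor GABPA and YY1. To show what the members share beyond their function, exact letters of each motif were sought on both strands in RefSeq promoters (GRCm38.p6, 250 bases before to 50 bases after each start). The table held promoters for 70 of the 86 members. The NRF1 letters CGCATGCG were in 10 members (14.3%), against 2.07% of 27025 genes in the table and 2.77% of its protein-coding genes. The ETS letters CCGGAAG were in 16 members (22.9%), against 9.93% of all genes and 12.9% of protein-coding genes. The YY1 letters AAGATGGCG were in 8 members (11.4%), against 1.64% of all genes and 2.14% of protein-coding genes. In 7 of these 8 genes a YY1 match lay after the start, at 23 to 36 bases. At least 1 of the 3 kinds was found in 28 members (40%), against 12.8% of all genes and 16.7% of protein-coding genes, and no matches of different kinds overlapped. A match describes letters only, not a bound site.

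The 250 bases before the start are given for 4 members, in the direction of the gene (all on the minus strand), with motif letters in capitals. Atp5j, a peripheral stalk subunit of ATP synthase, was the 1 member that held all 3 motifs. They lay in 1 of its 2 promoters, which is the one shown (chr16:84834977-84835226). That stretch lies inside the annotated gene (chr16:84827866-84835625). Cycs, the gene for cytochrome c, held an NRF1 match 61 bases before the start (chr6:50566570-50566819). Uqcr10 of complex III (chr11:4704345-4704594) and Ndufa4 (chr6:11907451-11907700) are shown because their RNA stood highest in KO relative to WT among abundant members, and neither held any of the 3 motifs.
Atp5j: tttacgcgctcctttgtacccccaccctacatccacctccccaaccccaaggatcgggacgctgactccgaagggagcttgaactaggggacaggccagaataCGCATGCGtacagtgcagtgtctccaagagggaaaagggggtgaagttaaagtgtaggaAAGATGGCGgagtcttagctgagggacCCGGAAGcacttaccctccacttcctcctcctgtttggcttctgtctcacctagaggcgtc
Cycs: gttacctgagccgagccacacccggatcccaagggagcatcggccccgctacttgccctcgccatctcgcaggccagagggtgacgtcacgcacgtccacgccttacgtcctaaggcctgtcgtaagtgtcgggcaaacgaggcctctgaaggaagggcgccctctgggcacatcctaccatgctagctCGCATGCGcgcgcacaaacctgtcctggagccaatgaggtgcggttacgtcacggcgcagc
Uqcr10: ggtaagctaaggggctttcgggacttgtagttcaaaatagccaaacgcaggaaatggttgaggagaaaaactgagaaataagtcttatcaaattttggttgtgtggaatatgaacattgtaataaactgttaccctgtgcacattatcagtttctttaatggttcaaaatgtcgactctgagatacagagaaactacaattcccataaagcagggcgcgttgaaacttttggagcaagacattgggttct
Ndufa4: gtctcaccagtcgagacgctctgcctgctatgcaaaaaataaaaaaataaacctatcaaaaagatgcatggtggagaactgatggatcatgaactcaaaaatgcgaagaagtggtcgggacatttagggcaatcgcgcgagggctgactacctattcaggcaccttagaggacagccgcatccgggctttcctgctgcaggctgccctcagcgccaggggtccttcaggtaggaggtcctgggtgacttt
The members with an NRF1 match had a median log2 fold change of -0.04, against -0.17 for those without. With and without an ETS match the medians were -0.11 and -0.19, and with and without a YY1 match they were -0.21 and -0.15. These are descriptions of small groups and were not tested.

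Across the 5 complexes, no subunit gene passed the test, and most members stood slightly lower in KO than in WT. Of the 86 members, 82 had enough counts to be tested. Cox4i2 (6 counts in all), Cox8b (1 count), Cox7b2 and Cox8c (0 counts each) did not, which are isoform genes known from lung, muscle or testis. By edgeR, 0 of the 82 were called higher, against 1.72% of the 14861 genes tested, and 0 were called lower, against 1.9%. The lowest adjusted p among members was 0.0621, for Ndufa4. At an unadjusted p under 0.05, 5 members stood higher, against 14.8% of all genes, and 8 stood lower (9.76%), against 15.7%. DESeq2 called 1 member, of 1922 genes it called in all, and limma-voom 0, of 582. Beside the spread of all genes, the members' differences were small. The log2 fold change lay within 0.5 of 0 in 77 of 82 members (93.9%), against 62.2% of all genes, and the 95% interval lay between -1 and 1 in 77 members, against 51% of all genes. Members are more abundant than most genes. At a mean of at least 10 CPM the corresponding share of intervals was 98.7% of 78 members and 76% of 8176 genes.

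The members' median log2 fold change was -0.15, against -0.01 for all genes tested, and 66 of 82 (80.5%) were negative, against 51%. Among genes with a mean of at least 10 CPM, the medians were -0.15 for members and -0.09 for all genes. Of these, 82.1% of members and 58.2% of all genes were negative. Both KO libraries lay below both WT libraries in 42 members (51.2%), against 32.2% of all genes. Both KO libraries lay above in 10 members (12.2%), against 31.1% of all genes, and the remaining 30 overlapped. At a mean of at least 10 CPM, KO lay below WT in 52.6% of members, against 40.6% of genes. It lay above in 10.3% of these members, against 27.7% of genes. The sign depended on scaling. With library totals alone the members' median was 0.01 and that of all genes 0.15, so that the members' median less that of all genes was -0.14 in both scalings. On that scale KO lay below WT in 26 members (31.7%, against 19.8% of all genes) and above in 27 (32.9%, against 40.5%).

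**Figure D1:**
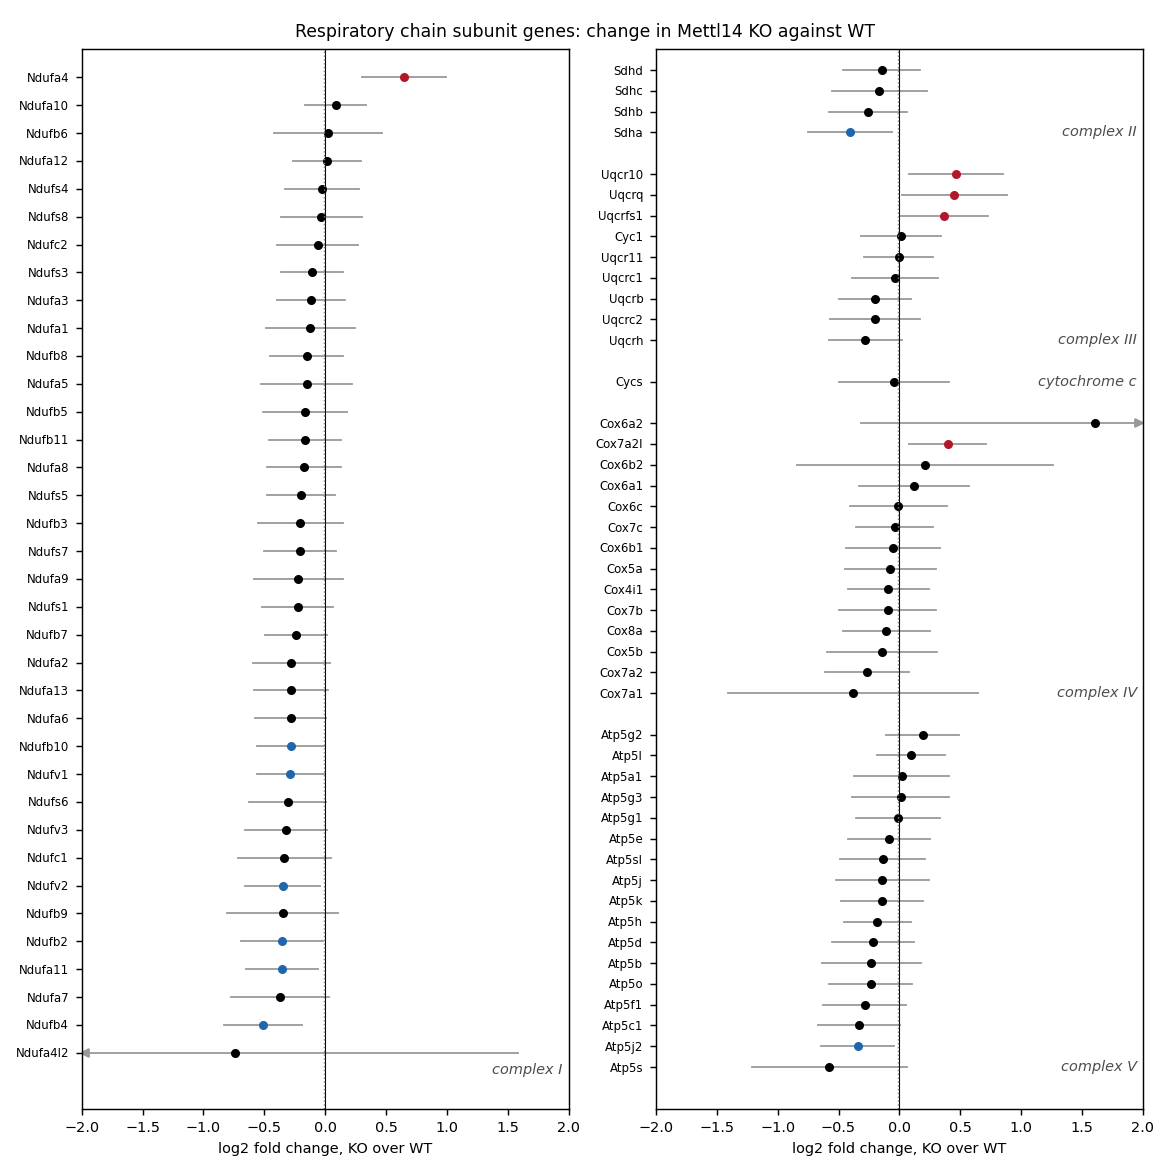
Log2 fold change, KO over WT, of 81 of the 82 tested members, each with its 95% interval, complex I on the left and the others on the right. Coloured points had an unadjusted p under 0.05 (red for 5 higher, blue for 8 lower), arrows mark intervals that run past the axis, the dotted line is the median of all genes, and 0 members passed after adjustment. With library totals in place of TMM the members' median moves to 0.01.

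The 2 KO libraries differed from each other across the members. KO replicate 2 lay below KO replicate 1 in 81 of 82 members (98.8%), against 49.4% of all genes, with a median log2 ratio of -0.19 for members and 0.00 for all genes. It was the lowest of the 4 libraries in 64 members (78%), against 23.1% of all genes. With library totals alone it lay below KO replicate 1 in 45 members (54.9%), against 22.2% of all genes, and the median log2 ratio was -0.01 for members and 0.17 for all genes. This library also had the highest sums of erythroid and fibroblast markers given above, and their part in its low values was not tested. Without KO replicate 2 the members' median log2 fold change was -0.04, and without KO replicate 1 it was -0.27. Less the median of all genes, these were -0.03 and -0.24. Compared within sex, the median log2 ratio of KO replicate 2 over WT replicate 1 (males) was -0.22 for members and -0.03 for all genes. For KO replicate 1 over WT replicate 2 (females) it was -0.09 for members and 0.01 for all genes. In 51 members (62.2%) both within-sex ratios were negative, against 38.5% of all genes, and in 12 (14.6%) both were positive, against 37.5%.

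**Figure D2:**
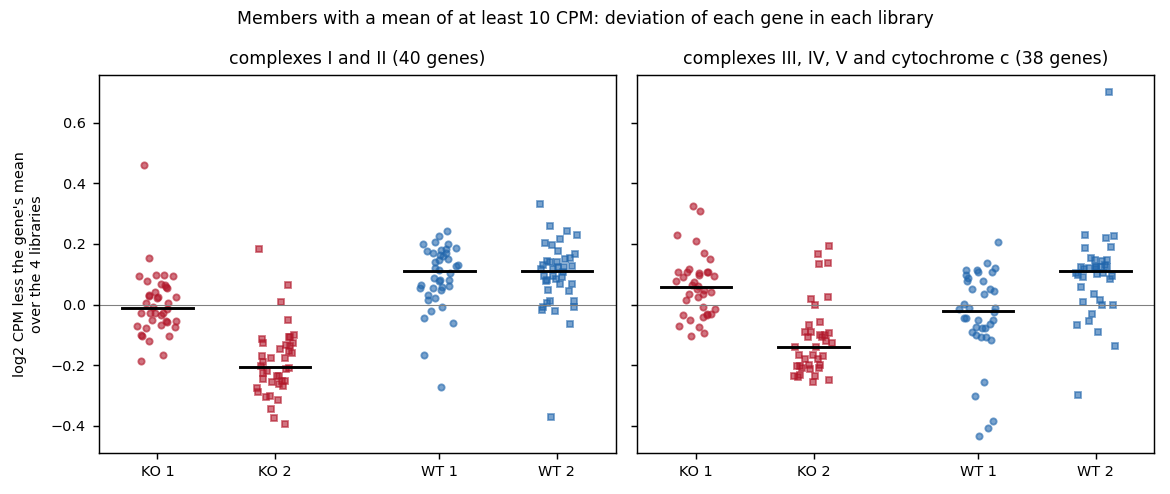
Log2 CPM of each member less its own mean over the 4 libraries, for the 78 members with a mean of at least 10 CPM, with a bar at the median. In complexes I and II (40 genes) the medians were -0.01 and -0.21 in KO replicates 1 and 2 and 0.11 in both WT libraries, and in the other complexes (38 genes) KO replicate 2 was again lowest, at -0.14.

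Complex I, the NADH dehydrogenase, had mostly negative fold changes. Its 37 genes had a median log2 fold change of -0.20, 33 of them were negative, and in 26 (70.3%) both KO libraries lay below both WT libraries, against 32.2% of all genes and 40.6% of those with at least 10 CPM. Without 1 library each, the median less that of all genes ran from -0.29 (without KO replicate 1) to -0.12 (without KO replicate 2). The 7 core subunits, which carry the flavin and the iron-sulfur clusters, had a median of -0.20, and the other 30 genes one of -0.21. Genes were placed by symbol, so these 30 include Ndufa4, known as a subunit of complex IV, and its paralog Ndufa4l2. The values for all 37 genes include both as well. Ndufv1, the subunit that binds NADH, stood at 72.2 and 65.6 CPM in KO libraries, against 85.5 and 82.4 CPM in WT libraries. The KO values lay below the WT values, with a log2 fold change of -0.28 ± 0.11 (SE) and an edgeR adjusted p of 0.157. Ndufs1, which carries iron-sulfur clusters, stood at 83.2 and 74.6 CPM in KO libraries, against 90.1 and 94.2 CPM in WT libraries (log2 fold change -0.22, edgeR adjusted p = 0.246).

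Ndufb4, an accessory subunit of the membrane arm, had the lowest log2 fold change among abundant members. It stood at 27.0 and 23.9 CPM in KO libraries, against 34.3 and 38.2 CPM in WT libraries. The groups were apart, and the log2 fold change was -0.51 ± 0.12 (SE), with an edgeR adjusted p of 0.0772. Of its 50-base stretches, 18.3% also occur in other genes, so some of its reads could be assigned elsewhere. Ndufa6, the complex I gene with the highest level per length, stood at 78.0 and 74.2 CPM in KO libraries, against 87.7 and 97.6 CPM in WT libraries (log2 fold change -0.28, edgeR adjusted p = 0.171). Apart from Ndufb4, Ndufv1 and Ndufa4, the complex I genes with an unadjusted p under 0.05 were Ndufa11, Ndufb2, Ndufv2 and Ndufb10, with log2 fold changes of -0.36, -0.35, -0.35 and -0.28.

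Ndufa4 went the other way. Its symbol places it with complex I, but its protein is known as a subunit of complex IV. The gene (ENSMUSG00000029632) lies at chr6:11900292-11907497 (GRCm38), on the minus strand. It stood at 68.9 and 56.9 CPM in KO libraries, against 41.4 and 38.8 CPM in WT libraries, so that even the lower KO library was above both WT libraries. The log2 fold change was 0.65 (95% interval 0.31 to 0.99), with an edgeR adjusted p of 0.0621. It was called in 4 of 15 alternative settings, among them DESeq2 (adjusted p = 0.0129). Over the alternatives its adjusted p ran from 0.0129 to 0.378 and its log2 fold change from 0.49 to 0.81. Its paralog Ndufa4l2, known as a hypoxia-induced gene, had 19 and 15 counts in KO libraries and 7 and 48 counts in WT libraries, which overlapped. Ndufa10, an accessory subunit, was the only other complex I gene whose KO libraries both lay above WT, at 68.3 and 65.1 CPM in KO libraries and 63.7 and 61.9 CPM in WT libraries (log2 fold change 0.09).

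All 4 genes of complex II, succinate dehydrogenase, had negative log2 fold changes. Their median was -0.21, against -0.09 for genes with a mean of at least 10 CPM. Less that of all genes tested, the complex II median ran from -0.33 (without KO replicate 1) to -0.08 (without KO replicate 2). Sdha, the catalytic flavoprotein that is shared with the citric acid cycle, had the greatest difference. It stood at 210 and 187 CPM in KO libraries, against 258 and 267 CPM in WT libraries. The groups were apart, with a log2 fold change of -0.41 (95% interval -0.75 to -0.06) and an edgeR adjusted p of 0.126. Sdhb, the iron-sulfur subunit, stood at 83.8 and 71.4 CPM in KO libraries, against 92.5 and 92.7 CPM in WT libraries (log2 fold change -0.25, edgeR adjusted p = 0.234). Sdhd, a membrane anchor, stood at 157 and 140 CPM in KO libraries, against 165 and 163 CPM in WT libraries, and Sdhc, the other anchor, overlapped between groups.

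Complex III, the cytochrome bc1 complex, had members on both sides of WT. Its median log2 fold change was -0.01. Both KO libraries lay above WT in 3 of 9 genes (33.3%), against 31.1% of all genes, and below in 3 (33.3%), against 32.2%, shares near those of all genes. Leaving out 1 library moved the median, less that of all genes, between -0.09 (without KO replicate 1) and 0.12 (without KO replicate 2). Uqcr10, a small accessory subunit, stood at 137 and 124 CPM in KO libraries, against 84.9 and 104 CPM in WT libraries. Uqcrq, another small subunit, stood at 121 and 106 CPM in KO libraries, against 72.9 and 93.1 CPM in WT libraries. Uqcrfs1, the Rieske iron-sulfur protein, stood at 199 and 186 CPM in KO libraries, against 137 and 162 CPM in WT libraries. In each of the 3 genes both KO libraries lay above both WT libraries, and WT replicate 1 was the lowest of the 4. Their log2 fold changes were 0.47, 0.45 and 0.36, with edgeR adjusted p of 0.121, 0.152 and 0.162. Without WT replicate 2, the log2 fold changes of Uqcr10 and Uqcrq were 0.66 and 0.67. Over all 15 alternatives they ran from 0.32 to 0.66 for Uqcr10 and from 0.28 to 0.67 for Uqcrq.

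The other genes of complex III did not share that direction. Uqcrh, the hinge protein, stood at 117 and 106 CPM in KO libraries, against 135 and 136 CPM in WT libraries (log2 fold change -0.28, edgeR adjusted p = 0.183). Uqcrc2, a core protein of the matrix side, stood at 195 and 163 CPM in KO libraries, against 208 and 205 CPM in WT libraries (log2 fold change -0.20), and Uqcrb was -0.20. Cyc1, the gene for cytochrome c1, overlapped, with 139 and 121 CPM in KO libraries and 127 and 131 CPM in WT libraries (log2 fold change 0.01). Cycs, the mobile carrier between complexes III and IV, also overlapped, with 211 and 166 CPM in KO libraries and 181 and 207 CPM in WT libraries (log2 fold change -0.04).

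**Figure D3:**
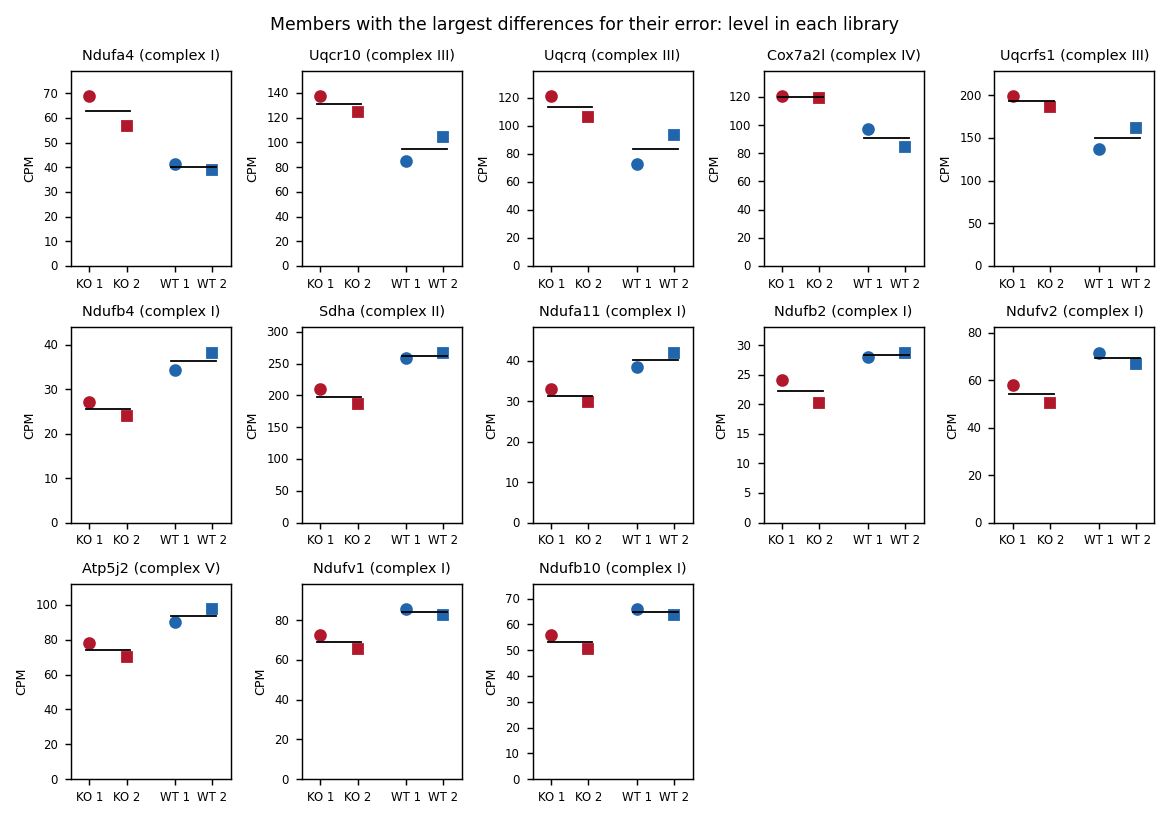
CPM in each library, with a bar at the group mean, for the 13 members with an unadjusted p under 0.05; each vertical axis starts at 0. In the 5 genes of the first row both KO libraries lie above both WT libraries, and in the 8 genes of the other rows both lie below; none passed after adjustment.

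In complex IV, cytochrome c oxidase, most genes overlapped between the groups. Ndufa4 was counted with complex I by its symbol and is not among the 14 tested genes here. Of these 14 genes 9 overlapped (64.3%, against 36.7% of all genes), and the median log2 fold change was -0.06. Less that of all genes, the median ran from -0.19 to 0.07 when 1 library was left out, so its sign turned (positive without WT replicate 2 or KO replicate 2). Cox4i1, a regulatory subunit, stood at 287 and 264 CPM in KO libraries, against 291 and 295 CPM in WT libraries (log2 fold change -0.09, edgeR adjusted p = 0.663). Cox5a stood at 207 and 188 CPM in KO libraries and 192 and 224 CPM in WT libraries (log2 fold change -0.07). Cox8a, the complex IV gene with the highest level per length, stood at 272 and 266 CPM in KO libraries and 270 and 309 CPM in WT libraries (log2 fold change -0.11).

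The isoform sets of complex IV gave mixed directions. Cox7a2l, a gene of the Cox7a set, stood at 121 and 119 CPM in KO libraries, against 97.3 and 84.8 CPM in WT libraries. The KO libraries were the higher ones and differed by little, with a log2 fold change of 0.40 (95% interval 0.08 to 0.71) and an edgeR adjusted p of 0.113. Its relative Cox7a2, the liver-type isoform, stood at 91.3 and 79.1 CPM in KO libraries, against 96.6 and 109 CPM in WT libraries (log2 fold change -0.27, edgeR adjusted p = 0.240). Cox7a1, the muscle-type isoform, stood at 13.8 and 13.2 CPM in KO libraries and 11.0 and 24.1 CPM in WT libraries, where the 2 WT libraries lay on either side of KO. Its log2 fold change was -0.38, and -0.85 without WT replicate 1. Without WT replicate 2 it stood 0.31 (log2) above the median of all genes.

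Cox6a1 stood at 278 and 263 CPM in KO libraries and 217 and 281 CPM in WT libraries, and overlapped. The muscle isoform Cox6a2 had 41 and 23 counts in KO libraries, against 4 and 16 counts in WT libraries, with a log2 fold change of 1.61 and a 95% interval of -0.31 to 3.53 (edgeR adjusted p = 0.217). Muscle markers, with 5 of 6 detected and Myh6 at 0 in every library, summed to 10.5 and 18.2 CPM in KO libraries, against 4.77 and 7.58 CPM in WT libraries, and their part in the Cox6a2 values was not tested. Cox6b1 stood at 182 and 165 CPM in KO libraries and 163 and 196 CPM in WT libraries. Its testis isoform Cox6b2 stood at 1.02 and 0.857 CPM in KO libraries, against 0.819 and 0.800 CPM in WT libraries.

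For complex V, the ATP synthase, the median log2 fold change was -0.14, against -0.09 for genes with a mean of at least 10 CPM. Of 17 genes 13 were negative (76.5%, against 51% of all genes and 58.2% of those with at least 10 CPM). Less that of all genes tested, the complex V median ran from -0.24 (without WT replicate 1) to -0.00584 (without KO replicate 2) when 1 library was left out. Atp5a1 and Atp5b encode the alpha and beta subunits of the catalytic head and were the most abundant members. Atp5b stood at 899 and 798 CPM in KO libraries, against 989 and 1001 CPM in WT libraries, with KO below WT (log2 fold change -0.23, edgeR adjusted p = 0.366). Atp5a1 overlapped, with 861 and 785 CPM in KO libraries and 808 and 817 CPM in WT libraries (log2 fold change 0.02). Atp5j2, a subunit of the membrane sector, stood at 77.9 and 70.0 CPM in KO libraries, against 90.1 and 97.5 CPM in WT libraries (log2 fold change -0.34, edgeR adjusted p = 0.134). Atp5s, a factor B gene matched by its symbol, stood at 2.97 and 2.73 CPM in KO libraries, against 4.58 and 3.91 CPM in WT libraries (log2 fold change -0.57, edgeR adjusted p = 0.194).

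The 3 genes Atp5g1, Atp5g2 and Atp5g3 encode the same mature c subunit of the rotor ring and differ in their import peptides. Atp5g2 stood at 102 and 91.4 CPM in KO libraries, against 87.1 and 82.1 CPM in WT libraries, with both KO libraries above WT (log2 fold change 0.19, edgeR adjusted p = 0.312). Of its 50-base stretches 38.3% also occur in other genes. Atp5g1 stood at 92.4 and 78.9 CPM in KO libraries and 81.4 and 91.3 CPM in WT libraries, and Atp5g3 at 280 and 245 CPM in KO libraries and 241 and 280 CPM in WT libraries, so both overlapped. Atp5l, a membrane subunit, was the other complex V gene with KO above WT, at 117 and 109 CPM in KO libraries, against 104 and 107 CPM in WT libraries (log2 fold change 0.10).

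Levels differed between the complexes. Per kilobase of transcript, the median level over complex IV genes was 178 CPM per kb in KO and 187 in WT, and over complex V genes 134 in KO and 164 in WT. The medians were 117 in KO and 110 in WT for complex III, 68.2 in KO and 85.8 in WT for complex II, and 41.4 in KO and 45.6 in WT for complex I. Cycs stood at 60.3 CPM per kb in KO and 62.2 in WT. The highest member was Cox8a, at 489 CPM per kb in KO and 526 in WT, followed by Atp5b at 443 in KO and 519 in WT.

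Summed per library, the members took 0.916% and 0.924% of all counts in KO libraries, against 0.854% and 0.912% in WT libraries. The summed CPM of complex I was 1713 and 1511 in KO libraries, against 1819 and 1823 in WT libraries. For complex II the sums were 546 and 477 CPM in KO libraries, against 607 and 627 CPM in WT libraries. For complex V they were 3476 and 3092 CPM in KO libraries, against 3531 and 3639 CPM in WT libraries. In these 3 complexes the KO sums lay below the WT sums, whereas those of complexes III and IV overlapped. Taken as shares of all counts, without TMM, the KO libraries lay below WT for complex I (0.1700% and 0.1702% in KO libraries, against 0.1706% and 0.1733% in WT libraries) and complex II. On that scale complex V overlapped, at 0.3449% and 0.3483% in KO libraries and 0.3311% and 0.3460% in WT libraries. Complex III lay above, at 0.1254% and 0.1259% in KO libraries, against 0.1051% and 0.1127% in WT libraries.

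Shares of the members' own counts do not depend on the scaling between libraries. Complex III took 13.7% and 13.6% of the members' counts in KO libraries, against 12.3% and 12.4% in WT libraries. Its genes did not move together. By CPM, KO lay above WT in 3 of 9 (Uqcr10, Uqcrq and Uqcrfs1; 33.3%, against 31.1% of all genes). KO lay below WT in 3 (33.3%, against 32.2%), and 3 overlapped. Complex II took 5.91% and 5.82% in KO libraries, against 6.66% and 6.54% in WT libraries. Complex I took 18.6% and 18.4% in KO libraries, against 20.0% and 19.0% in WT libraries. The 2 libraries of a genotype lay closer together than the genotypes for complexes II and III. An exact two-sided permutation test over the 4 libraries gave p = 0.333 for each of these shares, which is the smallest p that 2 against 2 allows.

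**Figure D4:**
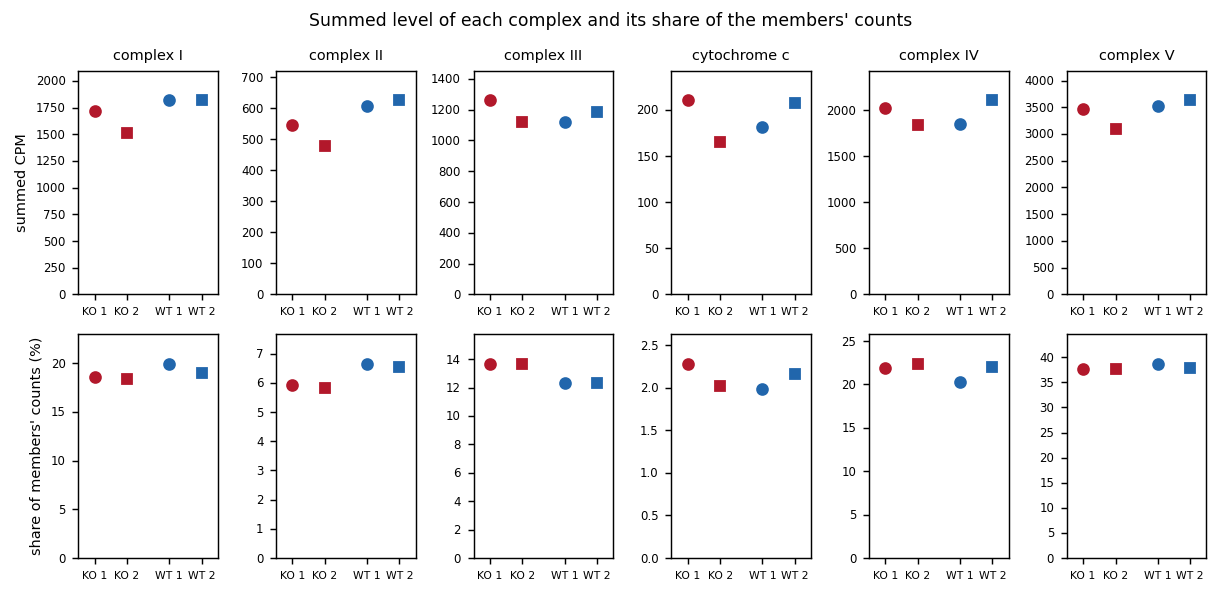
Summed CPM of the members of each complex (upper row) and their share of the counts of all members in percent (lower row) in each library, with every vertical axis starting at 0. The complex III share is 13.6% to 13.7% in KO and 12.3% to 12.4% in WT, and the complex II share is 5.82% to 5.91% in KO and 6.54% to 6.66% in WT. Of the 9 complex III genes, KO lay above WT in 3 and below in 3 by CPM, and 3 overlapped.

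Outside the subunit genes, single genes that build or regulate the chain passed the test. Of 51 tested assembly factors, edgeR called 2 higher and 0 lower, against 1.72% and 1.9% of all genes. At an unadjusted p under 0.05, 11 stood higher (21.6%, against 14.8% of all genes) and 4 lower (7.84%, against 15.7%), and the list's median log2 fold change was 0.04. Ndufaf4, a factor for complex I assembly, rose to 24.1 and 26.4 CPM in KO libraries, against 9.59 and 10.7 CPM in WT libraries. Its log2 fold change was 1.32 ± 0.13 (SE), with an edgeR adjusted p of 0.0434. Sdhaf1, which helps insert iron-sulfur clusters into Sdhb, rose to 27.0 and 30.3 CPM in KO libraries, against 9.20 and 11.3 CPM in WT libraries (log2 fold change 1.48, edgeR adjusted p = 0.0434). In both genes every KO library lay above every WT library, as in 20 of the 51 (39.2%, against 31.1% of all genes). With no filter, 4 assembly factors were called higher, where 1632 of 24337 genes were called in all. Tmem186 overlapped, with 7.40 and 7.44 CPM in KO libraries and 13.3 and 7.20 CPM in WT libraries. Its log2 fold change was -0.47 with every library and -0.81 without WT replicate 2. Over all alternatives it ran from -0.81 to 0.03. The complex II subunit Sdhb itself had a log2 fold change of -0.25.

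Among 13 regulators of mitochondrial gene expression, 1 was called higher and 1 lower, against 1.72% and 1.9% of all genes. Ppargc1a, the coactivator PGC-1alpha that drives mitochondrial biogenesis, fell to 13.4 and 12.6 CPM in KO libraries, against 28.0 and 35.2 CPM in WT libraries (log2 fold change -1.28, edgeR adjusted p = 0.0434). Its relative Pprc1 rose to 22.7 and 24.4 CPM in KO libraries, against 10.2 and 9.76 CPM in WT libraries (log2 fold change 1.24, edgeR adjusted p = 0.0434). In neither gene did the groups overlap. Over the list, KO lay above WT in 7 genes (53.8%, against 31.1% of all genes) and below in 3 (23.1%, against 32.2%). The list's median log2 fold change was 0.16. Without either KO library, 0 genes in all were called by edgeR, and the calls of Ndufaf4, Sdhaf1, Pprc1 and Ppargc1a held in the other 13 of 15 alternatives. The log2 fold change of Ppargc1a lay between -1.45 and -1.08 over all alternatives.

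Of 13 coenzyme Q genes, edgeR called 0 higher and 1 lower, against 1.72% and 1.9% of all genes. The gene called was Coq10b, a coenzyme Q binding protein. It stood at 24.4 and 25.2 CPM in KO libraries, against 37.7 and 42.0 CPM in WT libraries (log2 fold change -0.69, edgeR adjusted p = 0.0495). That call held in 6 of 15 alternatives, and adjusted p ran from 0.00952 to 0.378. The list's median was -0.25, but -0.08 with library totals alone and -0.12 without WT replicate 1. Pdss2 had a log2 fold change of 0.58, and of 0.73 without WT replicate 2. Of 14 citric acid cycle genes, edgeR called 0, against 1.72% of all genes higher and 1.9% lower, and DESeq2 also called 0. At an unadjusted p under 0.05 by edgeR, 2 stood higher (14.3%, against 14.8% of all genes) and 0 lower, against 15.7%. Cs, citrate synthase, stood at 401 and 378 CPM in KO libraries and 339 and 482 CPM in WT libraries, and overlapped. Of 13 subunits encoded in the mitochondrial genome, edgeR called 0. At an unadjusted p under 0.05 there were also 0, against 14.8% of all genes higher and 15.7% lower. DESeq2 called 2 higher (mt-Nd1 and mt-Nd3, adjusted p = 0.0469 and 0.0459), where it called 1922 of 14861 genes in all. The list's median was 0.09, and 8 of 13 were positive. Both KO libraries lay above both WT libraries in 3 of the 13 (23.1%, against 31.1% of all genes). These were mt-Nd1, mt-Nd2 and mt-Nd3, with log2 fold changes of 0.59, 0.44 and 0.75 (edgeR adjusted p = 0.207, 0.275 and 0.167). KO lay below WT in 1 (7.69%, against 32.2%), and 9 overlapped (69.2%, against 36.7%). The most abundant, mt-Co1, stood at 155833 and 122881 CPM in KO libraries, against 194713 and 161068 CPM in WT libraries (log2 fold change -0.35, edgeR adjusted p = 0.453). Of the 13 genes, 9 share no 50-base stretch with 4 chromosome 1 copies of mitochondrial DNA. In mt-Atp6, mt-Co2 and mt-Co3 99.5% or more of the stretches are shared, and in mt-Co1 28.7%, so their reads could be assigned to either. The copies held another 11.2% and 9.97% of counts in KO libraries, against 11.1% and 9.52% in WT libraries. The ratio of mitochondrially encoded to nuclear subunit counts was 34.9 and 30.3 in KO libraries and 37.4 and 29.6 in WT libraries, and overlapped.

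**Figure D5:**
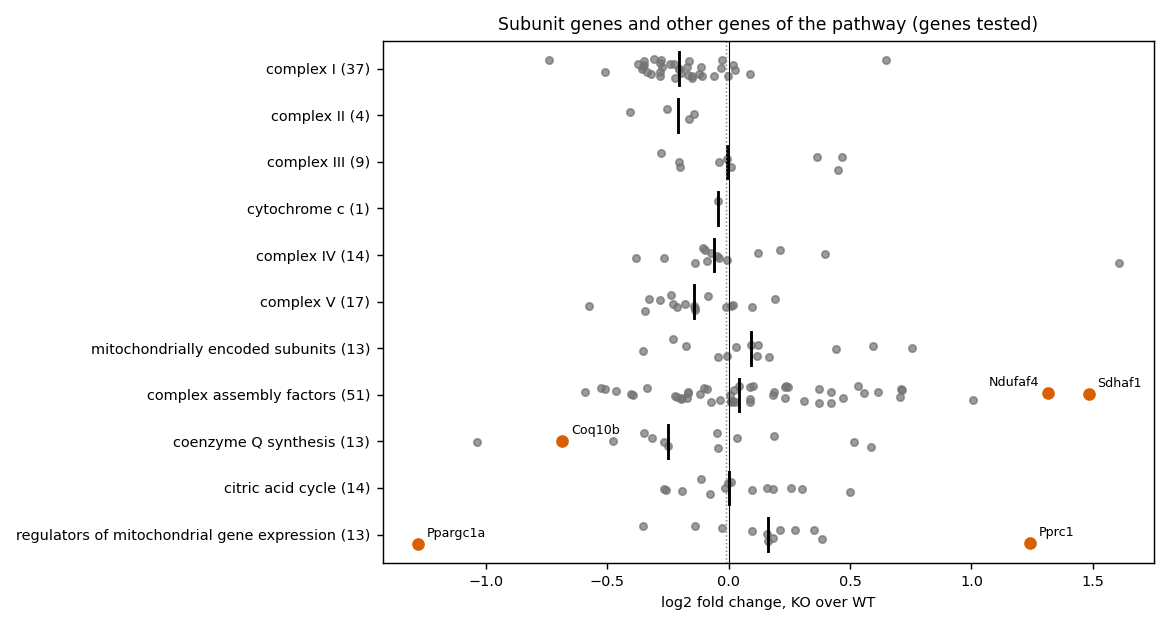
Log2 fold change, KO over WT, of each tested gene by complex and in the other lists of the pathway, with a bar at the list's median; orange points passed the test after adjustment. The 5 called genes (Ndufaf4, Sdhaf1, Pprc1, Ppargc1a and Coq10b) are all outside the subunit genes, and Cox6a2, at 1.61, is the far point of complex IV. The dotted line is the median of all genes.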

How the data were processed

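The deposited table holds whole values for each gene, with unequal library totals, and these were used as unscaled counts. The values alone do not show whether they are read counts or rounded estimates. Per the submitters' processing notes, FastQC 0.11.2, STAR 2.4.2a, RSEM 1.2.29 and build mm10 were used. Strand setting and annotation are not stated there. Of the members, 26 overlap an antisense exon, and 0 share over 50% of their 50-base stretches with other genes. Besides Ndufb4 and Atp5g2, the largest shares among named members were 26.1% for Cycs, 25.5% for Uqcrb and 17.6% for Uqcrc2. Cox7a2l followed with 13.8% and Atp5g1 with 11.1%.

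Groups came from the genotype label, and 0 columns lacked a sample. Replicates were numbered in accession order. Sex, read from the data, differed within both groups, and whether a library pooled animals is not stated, so p-values measure the spread between these samples. Genes were filtered (filterByExpr), scaled with TMM and tested with edgeR 4.0.16 in R 4.3.3 (quasi-likelihood F-test, robust, two-sided, Benjamini-Hochberg over 14861 genes, threshold 0.05). Simulated counts were also run through the test. They held no shift of many genes in 1 library, such as the members showed in KO replicate 2. How such a shift bears on the test was not tested. Intervals are 95%. Alternatives used DESeq2 1.42.0, limma 3.58.1 (voom), other scalings and filters, sex as a covariate and leaving out each library. Lengths and coordinates are from GENCODE M21 (principal transcripts).

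The members and lists were chosen with earlier results of these data known. Named genes were, per complex, the 2 largest rises and the 2 largest falls, the highest level per length, core subunits and isoform sets. Of each other list, up to 4 called genes were named, otherwise the most abundant. Further genes (Ndufa11, Ndufb2, Ndufv2, Ndufb10, Uqcrb, Sdhc, Tmem186, Pdss2, mt-Nd1, mt-Nd2, mt-Nd3, mt-Atp6, mt-Co2, mt-Co3) and the absorptive colonocyte markers were named after their values were seen. Of the members, 1 is counted but not reported here by name.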

Additional observations from a re-analysis of the deposited data

How the results depend on the processing

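No paired analysis by replicate number was possible because the labels give none shared between the groups. Sex, read from the data, was fitted as a covariate instead and left 0 members called. With library totals alone, DESeq2 and no filter, 1 member (Ndufa4) was called higher, as it was with library totals after the mitochondrial genome and its copies were left out, a setting chosen after seeing the data. Leaving out 1 library gave 0 to 2 members called higher and 0 to 1 lower. The members' median log2 fold change was 0.0079 with library totals and -0.00327 in the added setting. Without 1 library each it ran from -0.27 to -0.04.

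All genes called numbered 1922 by DESeq2, 1632 with no filter, 1409 with sex as a covariate, 970 in the added setting, and 0 to 2290 without 1 library. The 0 arose without either KO library, where 2257 and 1987 genes had an unadjusted p under 0.05 by edgeR. With a single library in a group, that library is assumed to vary like the others.

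Relative to the median of all genes, some near-zero members changed sign. Atp5g1 was -0.00543 with library totals, -0.000144 by DESeq2, -0.0102 by limma-voom, -0.0251 with no filter and -0.00826 with sex as a covariate. With no filter Cyc1 was -0.00225 and Atp5g3 -0.00352. Leaving out 1 library, the values ran from -0.0808 to 0.14 for Cyc1, -0.0393 to 0.11 for Atp5a1, -0.11 to 0.33 for Cox6a1, -0.14 to 0.13 for Atp5g1, -0.14 to 0.13 for Atp5g3, -1.55 to 1.07 for Ndufa4l2, -0.21 to 0.15 for Cycs, -0.89 to 0.31 for Cox7a1, -0.25 to 0.000967 for Cox8a, -0.23 to 0.0521 for Cox5a, -0.22 to 0.10 for Cox6b1 and -0.36 to 0.21 for Cs.

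With 2 libraries per group, the median standard error of a member's log2 fold change was 0.13, which limits what can be resolved.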
